A study of Mus musculus with 22 samples.

Results

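A set of 380 genes, of 52636 in the deposited table, had higher RNA levels in mouse intestinal organoids after direct cold atmospheric plasma (CAP) with a medium change at 30 min, and had levels near or below those of untreated organoids with a medium change at 24 h. The members were chosen by measured values. A member had a mean value of at least 30 in the 3 libraries of direct CAP for 30 min, each of these 3 values was above all 4 untreated values, the mean of log2(value + 1) was at least 0.7 above that of the untreated libraries, and the same difference for the 3 libraries of direct CAP for 24 h was under 0.3. A value is a read count scaled by the authors to 20 M reads (M for mega) per library, without division by gene length, so levels of long and short genes cannot be ranked by it. Genes were kept for testing when 3 or more libraries had values of at least 10, which left 19370 genes and all 380 members.

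RNA was sequenced from wild-type organoids grown from crypts of the adult mouse duodenal epithelium, in 22 libraries of 4 organoid lines, which by the study's account came from individual mice and are numbered 1 to 4 here. The untreated group held 1 library of each line. The 6 treated groups held 1 library each of lines 1, 2 and 4, so n = 3 per treated group and line 3 is found only among the controls. CAP is a partly ionised gas that brings reactive oxygen and nitrogen species to the culture. Direct CAP was given to the organoids themselves 1 day after seeding, with fresh medium 30 min or 24 h later. Indirect CAP was medium taken from a different treated culture. Plasma-activated medium (PAM) was medium treated with no organoids in it. By the study's methods both media were given on day 1 or on day 2, whereas the labels give 30 min or 24 h for the same groups. The names day 1 and day 2 are used below. By the study's account the day 1 groups had these media for 24 h and then fresh medium until day 3. The day 2 groups had media made on day 1 and given from day 2 until day 3. Day 2 and day 1 groups thus also differ in recovery time, age of the medium and age of the organoids, which cannot be told apart. The labels give passage 12 for line 1, passage 14 for line 2 and passage 4 for lines 3 and 4. In the study's list of lines, those at passages 12 and 14 came from male mice. The other 2 lines of this experiment came from female mice and are listed at passage 2, which differs from the labels. The study's methods name the outbred CD1 strain. The study's text does not settle when the 30 min group was collected, so its name refers to the medium change. The number of reads counted on genes, estimated from the spacing of the low values, was between 19.4 and 28.7 M per library (median 22.5), so a value near 30 stands for about as many reads and has a counting error of several reads.

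Most members are not protein-coding genes. A mammalian gene is first copied whole, introns included, into a precursor RNA in the nucleus, and the introns are then cut out and destroyed. Many annotated units of unknown function lie inside such introns, and a gene of the TEC type is a provisional, unspliced unit that rests mainly on cDNA fragments and has no established product. Where such a unit lies in an intron of an expressed gene, a read from the precursor of the host gene and a read from a separate RNA of the unit cannot be told apart in counts, and neither can sense and antisense RNA unless the counting used strand, which the sources used here do not state.

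By GENCODE annotation, 192 of the 380 members (50.5%) were of the TEC type, against 1080 of the 19370 genes tested (5.58%). A further 60 members were protein-coding (15.8%, against 71.0% of the genes tested), 57 were antisense genes, 25 long intergenic noncoding RNAs (lincRNAs), 23 sense intronic RNAs, 10 processed pseudogenes and 6 processed transcripts. The members lay inside an intron of a protein-coding gene in 310 cases (81.6%), 207 on the strand of the host gene and 103 on the opposite strand. Of all genes tested, 1452 lay inside an intron on the same strand (7.50%) and 1015 on the opposite strand (5.24%). The share inside introns was 77.6% for the 161 genes that met the rule without the direct CAP 24 h library of line 4. It was 85.2% for the 236 genes that met it after quantile normalization.

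The 232 genes that met the same limits at 30 min but had a difference of 0.3 or more at 24 h were composed otherwise. TEC genes made up 15.9% of them and protein-coding genes 58.6%, and 14.7% lay in an intron on the same strand. Members had a median of 1 exon against 5 in the genes that were also higher at 24 h, a median exonic length of 2563 bases against 3232, and a median GC content of 44.7% against 52.3%. Over all genes tested these medians were 6 exons, 3239 bases and 49.4%. Among chromosomes that held members, their share of the genes tested was highest on chromosome 5, with 4.17% (58 of 1391). It was 3.88% on chromosome 3 (41 of 1057) and lowest on chromosome 15, with 0.313% (2 of 639). How many units inside introns each chromosome holds was not compared, so nothing is read from these shares. The levels of members were low, with 308 of 380 under a mean of 100 in direct CAP for 30 min and 3 at 1000 or more.

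**Figure D1:**
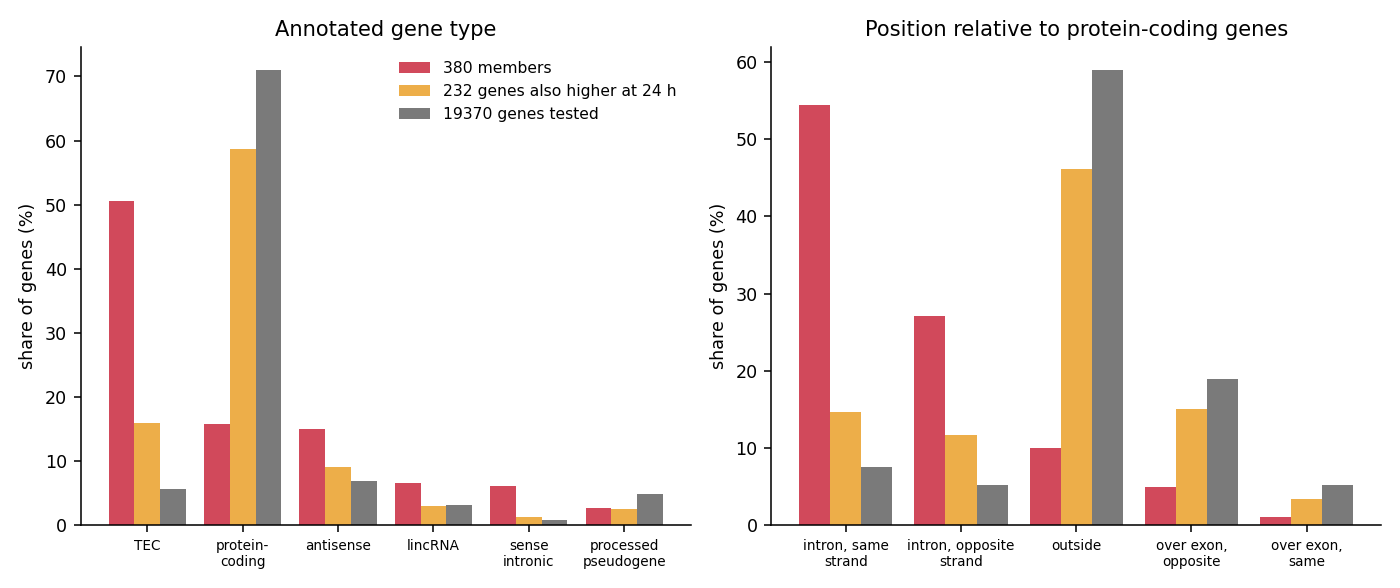
Share of genes (%, y axis) by annotated type (left) and by position relative to protein-coding genes (right) for the 380 members (red), the 232 genes also higher at 24 h (yellow) and the 19370 genes tested (grey). TEC genes are 50.5% of the members and 5.58% of the genes tested, and 54.5% of the members lie in an intron on the host's strand against 7.50% of the genes tested.

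The ends of 3 unspliced members are shown as examples of such annotated units. They were searched for AATAAA or ATTAAA, the signal near which a messenger RNA is cut. Each is the last 100 bases of the transcript in GENCODE vM21 (GRCm38). A signal would stand in capitals, and these 3 ends hold none. Gm37726 ends at chr3:84877677-84877776 on the plus strand in Fbxw7, which encodes a ubiquitin ligase subunit. Gm37465 ends at chr3:52000736-52000835 on the minus strand in Maml3, which encodes a Notch coactivator. Gm38065 ends at chr7:143350421-143350520 on the minus strand, opposite to its host Kcnq1, a potassium channel gene.
Gm37726: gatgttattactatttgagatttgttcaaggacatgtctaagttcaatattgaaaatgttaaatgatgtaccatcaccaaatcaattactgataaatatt
Gm37465: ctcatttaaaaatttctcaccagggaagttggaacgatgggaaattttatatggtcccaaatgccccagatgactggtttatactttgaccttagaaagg
Gm38065: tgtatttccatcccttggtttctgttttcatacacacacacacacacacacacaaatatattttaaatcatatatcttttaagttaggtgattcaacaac
A signal stood in the last 50 bases of 47 of 219 single-exon members inside introns (21.5%). The share was 14.0% of 1595 other single-exon genes tested inside introns, while 10040 of 13743 protein-coding genes tested had one. Of the TEC members 21.4% had one, against 30.4% of the other single-exon TEC genes tested. These matches are on the transcript strand and describe the annotated ends, not sites in use.

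The 10 members with the largest difference between direct CAP for 30 min and untreated all lay inside introns, and all were noncoding. Since these libraries chose the members, the values are a description with no test. All 3 libraries of direct CAP for 30 min were above all 4 untreated libraries in 12.5% of the genes tested and, by the rule, in every member. Gm38381 had values of 14, 33, 33 and 10 in untreated lines 1 to 4 and 74, 61 and 75 in lines 1, 2 and 4 of direct CAP for 30 min, a difference of 1.76 on the log2 scale. At 24 h it had 56, 22 and 11, so that line 1 stayed above all untreated libraries and line 4 was near the lowest of them. Gm38065 had 19, 21, 56 and 25 in untreated lines 1 to 4, 77, 119 and 89 at 30 min, and 39, 33 and 11 at 24 h (difference at 30 min 1.73, at 24 h -0.16). Untreated line 3 was the highest of its controls by far.

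Gm11380, a processed pseudogene opposite to Gmds (GDP-mannose dehydratase), had a difference of 1.75, and the pseudogene Gm20706, in the sulfate transporter gene Slc13a1, 1.55. 5033423K11Rik, opposite to Slc5a1, the gene of the intestinal glucose cotransporter SGLT1, had 12, 16, 13 and 4 untreated and 20, 50 and 34 at 30 min. Its 3 treated values spread by more than 2-fold, and their lowest was 4 above the highest control. Gm37726 (1.55), Gm37465 (1.54), Gm13134 opposite to Prdm16 (1.54), Gm11655 opposite to Prkca (1.52) and C030013C21Rik in Myo1d (1.52) made up the rest of the 10. Their untreated means lay between 19.0 and 35.5 and their means at 30 min between 53.7 and 99.3.

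Within the other gene types the leading members mostly lay in introns too. AC117689.1, opposite to Agmo, followed Gm13134 and Gm11655 among the antisense members, with a mean of 13.5 untreated and 36.3 in direct CAP for 30 min. Gm26772 (1.46), Gm15835 (1.29) and Gm26764 (1.27) led the lincRNAs and lay opposite to Zmiz1, Cdip1 and Sptlc2. Gm42941 (1.51) and Gm43260 (1.41), in Magi3, followed C030013C21Rik among the sense intronic RNAs. Gm7985 (1.45), opposite to Daam1, came after Gm11380 and Gm20706 among the processed pseudogenes. Gm15527 (1.48), over an exon of Chn2 on the other strand, Gm15764 (1.24) and 4931413K12Rik (1.16), opposite to Pitpna, led the processed transcripts.

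Of the 60 protein-coding members, 29 also lay inside an intron of another gene. Angptl2, which encodes a secreted angiopoietin-like protein, lies opposite to Ralgps1. It had 30, 28, 36 and 21 in untreated lines 1 to 4, 80, 89 and 79 in direct CAP for 30 min (difference 1.51), and 49, 51 and 14 at 24 h. Omg, the gene of oligodendrocyte myelin glycoprotein, lies opposite to Nf1 and had 12, 14, 23 and 6 untreated and 32, 44 and 35 at 30 min (1.49). Prss48, a serine protease gene opposite to Sh3d19, had 34, 36, 77 and 28 untreated and 99, 111 and 134 at 30 min (1.47). Further examples chosen after their values were seen follow. Angptl1, a relative of Angptl2, lies opposite to Ralgps2 and had a difference of 1.45. Eid3, in an intron of the thioredoxin reductase gene Txnrd1, had 51, 62, 85 and 33 untreated and 132, 123 and 154 at 30 min (1.30). Lrrc4, a synaptic adhesion gene opposite to Snd1, had 62, 50, 112 and 47 untreated and 132, 200 and 165 at 30 min (1.35). B3galt2, a galactosyltransferase gene opposite to Cdc73, had 55, 72, 110 and 49 untreated and 116, 184 and 134 at 30 min (1.05). In Lrrc4 and B3galt2 the gap between the groups was set by untreated line 3. Kctd4, opposite to Gtf2f2, entered the set by the narrowest margin between groups, with a lowest treated value of 24 and a highest untreated value of 23.

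At the top of the range the members were of another kind. Tkfc encodes triokinase, the enzyme that phosphorylates glyceraldehyde in fructose breakdown, and overlaps an exon of Ddb1 on the opposite strand. It had the highest mean value of all members, not per length. It had 11166, 9159, 7676 and 12002 in untreated lines 1 to 4 and 17402, 18782 and 13532 in lines 1, 2 and 4 of direct CAP for 30 min, a difference of 0.74. At 24 h it had 8335, 18098 and 5825, so line 2 stayed as high as at 30 min and lines 1 and 4 were within or below the untreated range. Slc2a5, the gene of the fructose transporter GLUT5, had 1567, 1600, 1312 and 1513 untreated, 2914, 2841 and 2294 at 30 min (difference 0.84), and 1204, 2793 and 882 at 24 h. Slc2a7, its neighbour on chromosome 4 and also a hexose transporter gene, was named after its values were seen. It had 117, 95, 110 and 72 untreated, 166, 200 and 123 at 30 min (0.72), and 89, 153 and 36 at 24 h. In all 3 genes the 24 h value of line 2 was above all untreated values and that of line 4 was below them. Other genes of sugar handling were no members. Slc2a2 (GLUT2) and G6pc (glucose-6-phosphatase) had differences at 30 min of 1.18 and 1.32 and at 24 h of 0.78 and 0.14, while Khk (ketohexokinase) had -0.11 at 30 min.

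Kcnq1ot1, an unspliced antisense RNA of 93092 bases that silences genes of the imprinted Kcnq1 domain in cis, had the second highest mean value. It spans chr7:143203458-143296549 on the minus strand and overlaps an exon of Kcnq1 on the other strand. Its values were 1842, 1640, 2810 and 1343 in untreated lines 1 to 4, 3032, 4502 and 3704 in direct CAP for 30 min (difference 1.01), and 2357, 1779 and 963 at 24 h. The 30 min values were all above the controls, by a small margin over untreated line 3. Another 6 members lay in introns of Kcnq1, the joint highest number in 1 host together with 6 TEC members in Camk2d, a calcium-dependent kinase gene. They were Gm38065, Gm38095, 4933417O13Rik, Gm37364, Gm28821 and Gm27389, with differences between 0.97 and 1.73. Kcnq1 itself had a difference of 0.00 at 30 min and means of 4171 untreated and 4151 at 30 min. The 6 lie on both strands of the host, 4933417O13Rik spans Gm38065 and Gm38095, and Kcnq1ot1 spans Gm27389 on the other strand, so these members do not rest on separate stretches of the genome.

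The promoter of Kcnq1ot1 is shown because it starts the long antisense RNA just described, and that of Tkfc because it is the member with the highest values. Both are RefSeq windows of 250 bases before to 50 after the start (GRCm38.p6), with CCAAT boxes of either orientation in capitals. The Kcnq1ot1 window is chr7:143296498-143296797 and the Tkfc window chr19:10604209-10604508, both on the minus strand.
Kcnq1ot1: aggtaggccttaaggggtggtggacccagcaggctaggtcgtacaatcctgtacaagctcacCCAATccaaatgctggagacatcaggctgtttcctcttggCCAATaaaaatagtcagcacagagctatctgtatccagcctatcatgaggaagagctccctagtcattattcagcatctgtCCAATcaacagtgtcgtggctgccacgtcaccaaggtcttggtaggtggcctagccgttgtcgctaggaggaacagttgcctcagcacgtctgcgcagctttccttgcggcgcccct
Tkfc: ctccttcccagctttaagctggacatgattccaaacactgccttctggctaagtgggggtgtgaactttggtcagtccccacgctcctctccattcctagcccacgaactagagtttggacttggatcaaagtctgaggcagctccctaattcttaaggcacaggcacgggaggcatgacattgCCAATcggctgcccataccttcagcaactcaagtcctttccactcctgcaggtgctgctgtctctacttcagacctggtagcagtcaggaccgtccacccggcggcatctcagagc
The Kcnq1ot1 window held 3 CCAAT boxes and the Tkfc window 1. Promoters were at hand for 70 members, of which 27 held CCAAT (38.6%, against 41.1% of 27025 genes with a promoter). The AP-1 motif TGACTCA stood in 1 of the 70 (5.95% of all genes), the E-box CACGTG in 3 (8.09%) and TATAAA in 15 (15.7%). Both strands were searched. A match describes letters in a window and does not show that a factor was bound.

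The remaining members among the 10 with the highest mean value were also mainly noncoding. C230096K16Rik, a TEC gene in Klf3, had a mean of 249 untreated and 438 at 30 min. The lincRNAs AI480526 (219 and 378) and Gm20342 (182 and 314) lay outside protein-coding genes, and Gdap10 (174 and 340.0) lay in Nampt, the gene of the rate-limiting enzyme of NAD salvage. AC132852.2 (164 and 308) lay in the amino acid transporter gene Slc6a20a and E230020D15Rik (145 and 284) in the ephrin gene Efnb2. Atat1, the gene of the alpha-tubulin acetyltransferase, was the third protein-coding member of the 10, with 169 and 273.

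Host genes did not share the difference. The 309 intron members whose host was in the table lay in 242 host genes, of which 43 held 2 or more members. At 30 min of direct CAP the median difference from untreated was 0.05 over the 242 hosts and 1.09 over the 309 members. All 309 members had a larger difference than their host, a count that the limit of 0.7 on members favours. Every treated library was above every untreated library in 37 hosts (15.3%), against 12.5% of the genes tested.

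Genes inside introns that were no members stood on the same side. Over all 2467 genes tested inside introns the median difference at 30 min was 0.78, and 2119 of them had a mean above the untreated mean. Over the 2157 of these that were no members it was 0.70, against 0.04 over all genes tested and -0.01 over 13749 protein-coding genes. The class was alike on both strands, with a median of 0.80 on the host's strand and 0.78 on the opposite strand. After quantile normalization the median of the 2467 genes was 0.44 and that of the 380 members 0.77, in place of 1.05. Members made up 12.6% of the genes tested inside introns and 0.414% of those elsewhere.

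**Figure D2:**
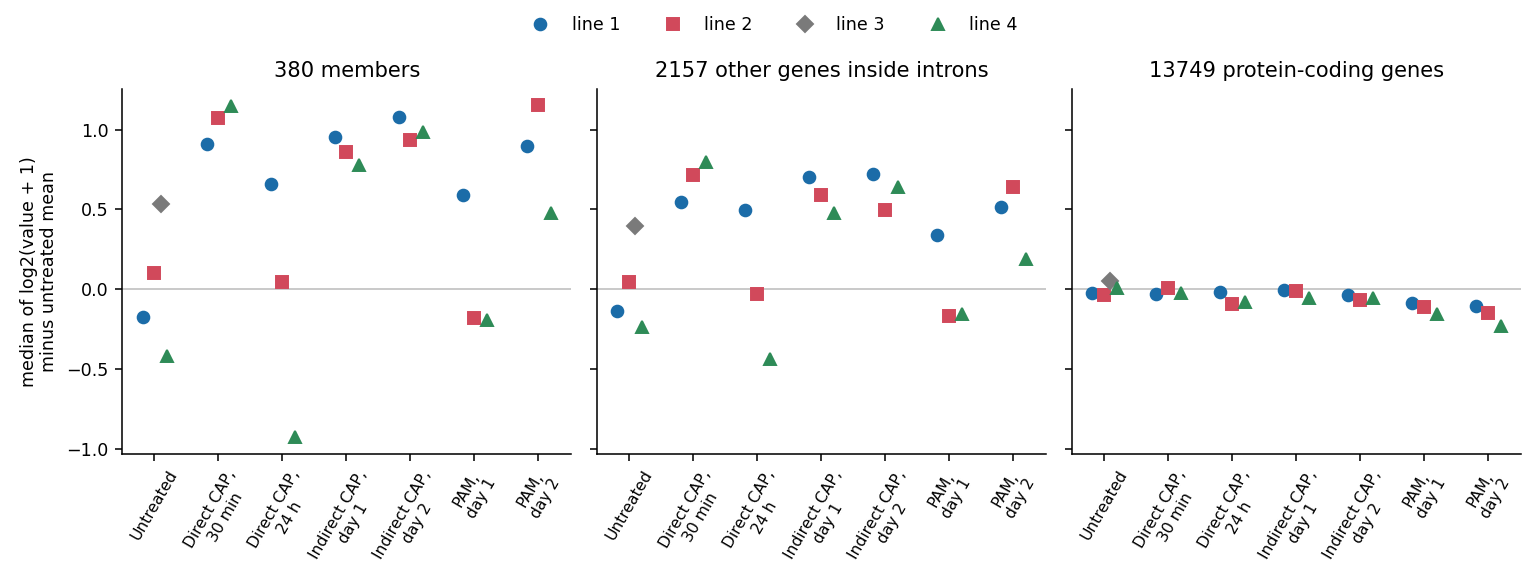
Median over genes of log2(value + 1) minus the untreated mean (y axis) in each of the 22 libraries by group (x axis), for the 380 members, the 2157 other genes tested inside introns and the 13749 protein-coding genes, with symbols for organoid lines. Members and other intron genes are low in the same libraries and high in the same ones, with -0.93 and -0.44 in direct CAP 24 h of line 4 and 1.15 and 0.80 in direct CAP 30 min of line 4, while the protein-coding medians lie between -0.23 and 0.05.

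The low level at 24 h rested on unequal libraries. The median over members of the difference from the untreated mean was 0.66 in line 1, 0.04 in line 2 and -0.93 in line 4 of direct CAP for 24 h, and 0.91, 1.07 and 1.15 in lines 1, 2 and 4 at 30 min. At 24 h 242 members were above all 4 untreated libraries in line 1 (63.7%, against 30.3% of the genes tested). In line 2 these were 31 members (8.16%, against 22.1%) and in line 4 they were 0 (against 26.8%). With all 3 libraries required, 0 members were above all untreated ones at 24 h, where the rule kept them low, against 11% of the genes tested. Without line 4 at 24 h only 161 genes met the rule, all of them members, whereas leaving out any other of the 10 libraries gave between 358 and 523 genes. Untreated libraries differed too, with medians of -0.17, 0.10, 0.53 and -0.42 in lines 1 to 4. Against the untreated library of its own line, the median in direct CAP for 24 h was 0.86 in line 1, -0.08 in line 2 and -0.50 in line 4. Line 1 at 24 h had 357 of the 380 members above its own control, line 2 154 and line 4 54, while the shares of the genes tested were 54.2%, 43.2% and 42.2%. The library of line 4 at 24 h had an estimated 22.4 M reads, and its members' summed value was 14521 against 24527 to 30592 in the untreated libraries and 48161 to 53993 at 30 min. The part that this library's other differences had in the result was not tested.

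The group name "30 min only" refers to direct CAP, and the rule did not use the media groups, whose values are described here. The median difference of the 380 members from untreated was 0.84 in indirect CAP from day 1, 0.97 in indirect CAP from day 2, 0.05 in PAM from day 1 and 0.83 in PAM from day 2. The medians over all genes tested were 0.03, 0.02, -0.11 and -0.09. These differences share the untreated libraries in which members were chosen to be low, so no test was made. All 3 libraries were above all 4 untreated libraries for 209 members in indirect CAP from day 1 (55.0%, against 16.8% of the genes tested) and for 243 in indirect CAP from day 2 (63.9%, against 22.4%). In PAM the numbers were 10 from day 1 (2.63%, against 16.2%) and 158 from day 2 (41.6%, against 20.2%). In 112 members (29.5%) both indirect groups and the day 2 PAM group were all above untreated in this way, against 9.92% of the genes tested. In 90 members (23.7%) none of the 4 media groups was, against 67.3% of the genes tested. Without untreated line 3, whose members stood highest among the controls, the 4 counts were 338, 312, 49 and 232, against 23.5%, 27.2%, 19.2% and 24% of the genes tested. Without PAM day 2 of line 4 the count for that group was 246 (against 25.3% of the genes tested). Without PAM day 1 of line 2 or line 4 the count from day 1 was 28 or 19 (against 19.8% or 18.8%).

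The median of 0.05 in PAM from day 1 covered libraries that stood apart. The median over members of the difference from the untreated mean was 0.59 in line 1, -0.18 in line 2 and -0.19 in line 4. In line 1 184 members were above all 4 untreated libraries (48.4%, against 31.2% of the genes tested), in line 2 22 (5.79%, against 25.7%) and in line 4 32 (8.42%, against 25.6%). Above the untreated library of the same line were 336 members in line 1, 102 in line 2 and 254 in line 4, against 48.1%, 41.3% and 41.9% of the genes tested.

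Few members were below the controls in the media groups, and they included the transporter genes Slc2a5 and Slc2a7. Members were chosen to be low in the untreated libraries, which favours small counts here, so nothing is read from the counts. All 3 libraries were below all 4 untreated ones for 0 members in indirect CAP from day 1 (16.3% of the genes tested), 3 in indirect CAP from day 2 (24.1%), 5 in PAM from day 1 (27.1%) and 7 in PAM from day 2 (30.4%). The 3 of indirect CAP from day 2 were Slc2a5, Slc2a7 and Slc13a2os, the antisense neighbour of the citrate transporter gene Slc13a2, named after their values were seen. Slc2a5 had 954, 1059 and 388 in lines 1, 2 and 4 of indirect CAP from day 2, 300, 1177 and 840 in PAM from day 1, and 1307, 1235 and 176 in PAM from day 2. In indirect CAP from day 1 it had 1996, 2810 and 1003, which overlapped the controls. Slc13a2os had 85, 47, 83 and 62 untreated, 98, 123 and 171 at 30 min, and 3, 23 and 4 in indirect CAP from day 2.

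Tkfc varied mainly by line in the media groups. It had 14168, 21384 and 7781 in lines 1, 2 and 4 of indirect CAP from day 1 and 13228, 16566 and 4111 in PAM from day 2, so that line 2 was the highest and line 4 the lowest in both. Kcnq1ot1 was close between lines in indirect CAP, with 2801, 2983 and 2662 from day 1 and 2631, 2627 and 2836 from day 2, and overlapped the controls in both because of untreated line 3. In PAM from day 2 it had 2077, 1807 and 1674, within the untreated range.

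**Figure D3:**
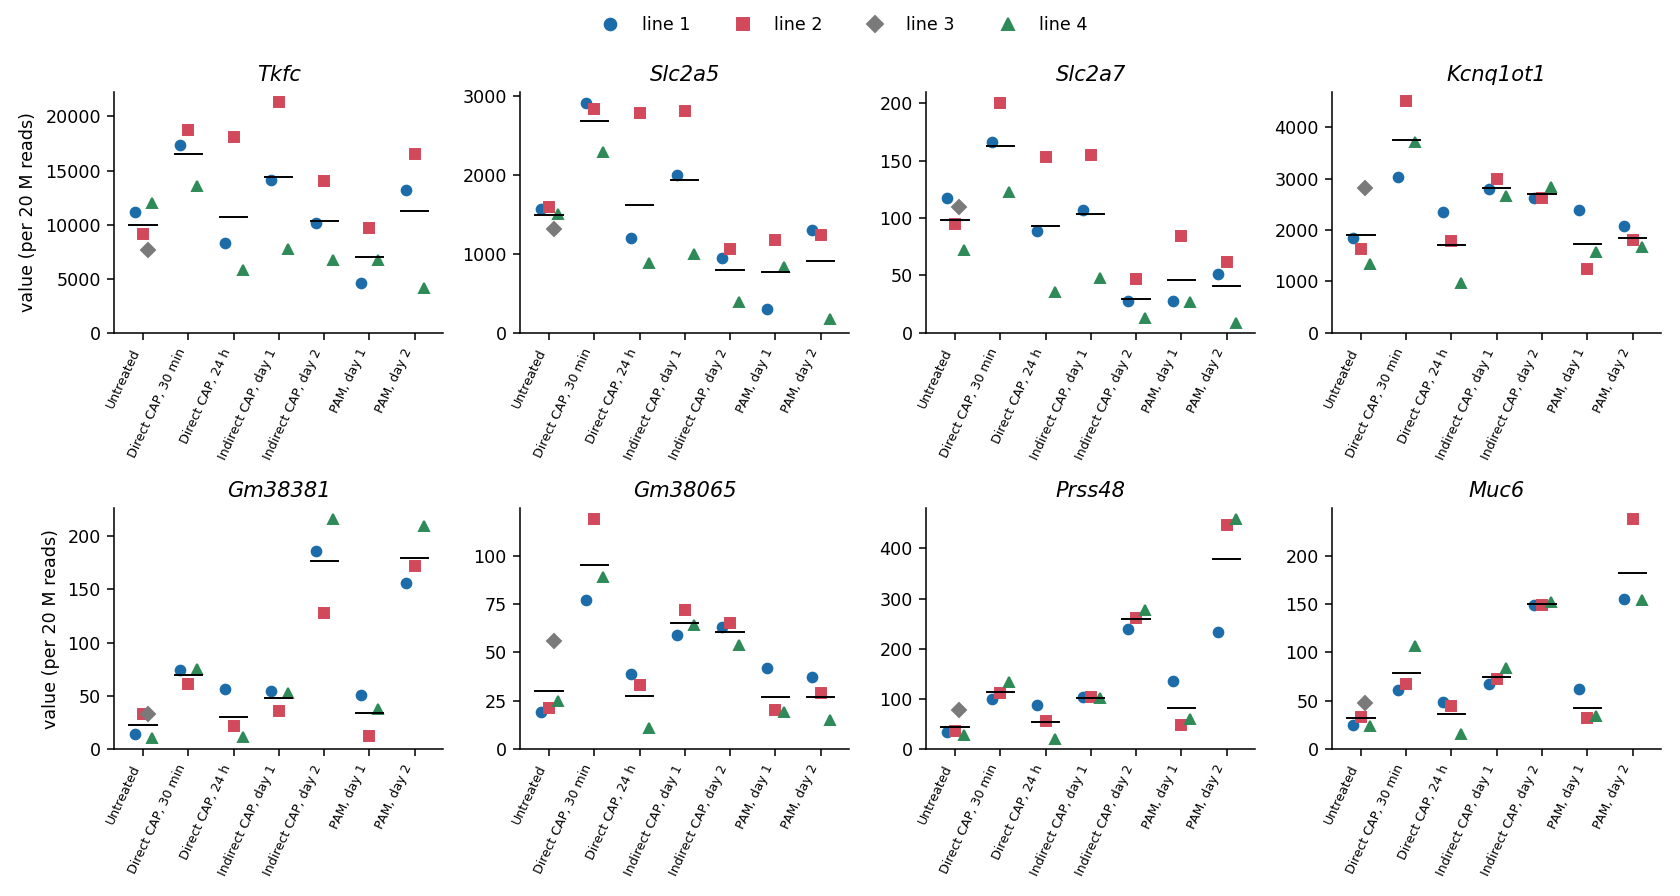
Values (y axes, reads per 20 M) of 8 members in every library by group (x axes), with symbols for organoid lines and a bar for the group mean. Gm38381, Prss48 and Muc6 have their highest values in the day 2 media, while Slc2a5 and Slc2a7 are below all controls there.

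Some intron members were higher in the day 2 media than in direct CAP. In indirect CAP from day 2 the difference from untreated was larger than at 30 min of direct CAP in 145 of the 310 intron members and in 167 of all 380 (43.9%, against 46.8% of the genes tested). In PAM from day 2 these were 115 and 133 (35%, against 39.7%), in indirect CAP from day 1 54 and 58 (15.3%, against 47.7%), and in PAM from day 1 0 and 0 (against 36.3%). The values at 30 min chose the members, so nothing is read from these shares. Gm38381 had 186, 128 and 216 in indirect CAP from day 2 and 156, 172 and 210 in PAM from day 2, all above its highest value of 75 at 30 min. Gm13134 had 118, 188 and 186 in indirect CAP from day 2 and 116, 248 and 199 in PAM from day 2. By contrast Gm38065, in Kcnq1, had 37, 29 and 15 in PAM from day 2, within the untreated range of 19 to 56 or below it.

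**Figure D4:**
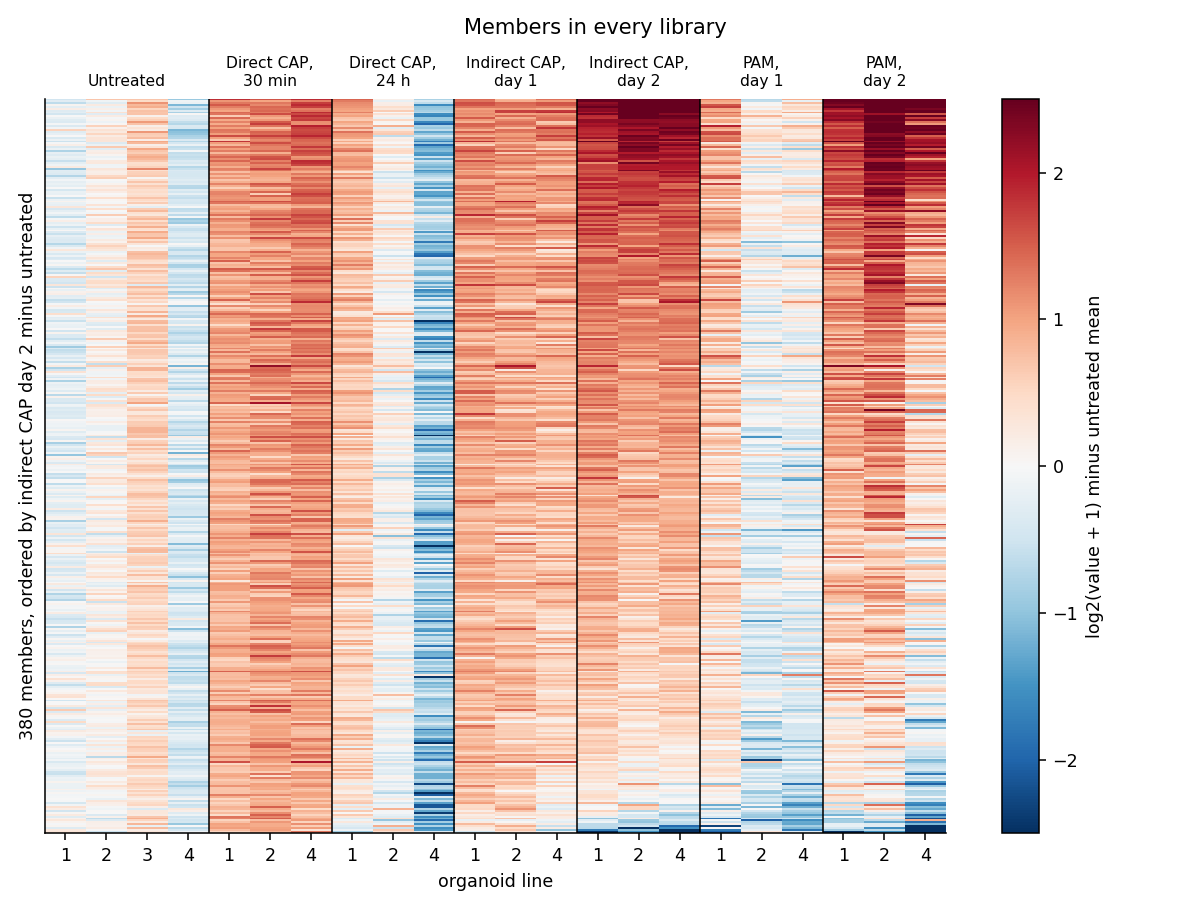
Log2(value + 1) minus the untreated mean (colour, red higher, blue lower, cut off at 2.5) for the 380 members (rows) in the 22 libraries (columns, by group and organoid line). Rows are red in all libraries of direct CAP for 30 min, blue in most of direct CAP 24 h of line 4, and red again in most of indirect CAP and PAM from day 2, where the median differences are 0.97 and 0.83.

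The 12 libraries of the media groups were not used by the rule, and contrasts among them were tested across 18744 genes with limma on log2(value + 1). A gene counted as called when its p, adjusted by Benjamini and Hochberg, was below 0.01 and its log2 fold change was 1 or larger in either direction. PAM from day 2 against PAM from day 1 called 50 members higher (13.2%) and 0 lower, against 1.4% and 1.59% of the genes tested. The median log2 fold change was 0.78 over the members and -0.01 over all genes tested, and 351 of the 380 members were on the higher side. When organoid lines entered as a replicate block, 91 members were higher and 1, Slc13a2os, lower (log2 fold change -2.65, adjusted p = 0.0075, limma), against 3.26% of the genes tested called higher. With a limit of 0.05 on the adjusted p and none on the fold change, 141 members were higher, against 9.09% of the genes tested. In the fit without the block, the only one repeated with libraries left out, the call depended on single libraries. There 0 members were called without PAM day 1 of line 2, PAM day 1 of line 4 or PAM day 2 of line 2. When only the PAM libraries were fitted, 0 were called too. Without PAM day 2 of line 4 the number was 24, and without any 1 of the indirect CAP libraries, which enter this contrast only through the shared spread, it was 22 to 33. The median stayed between 0.62 and 1.01 when each library was left out in turn.

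The 5 members with the largest rise from PAM day 1 to PAM day 2 all lay in introns. Gm37524, of the TEC type, had 33, 10 and 14 in lines 1, 2 and 4 from day 1 and 130, 99 and 126 from day 2, a log2 fold change of 2.74 ± 0.35 (SE; adjusted p = 0.0030, limma). Gm38381 had 51, 12 and 38 and then 156, 172 and 210 (2.59 ± 0.43, adjusted p = 0.0053, limma). The day 1 and day 2 values of both did not overlap. Gm7985 rose by 2.51 ± 0.34 and Gm13134 by 2.31 ± 0.40, with adjusted p = 0.0034 and 0.0058 (limma). Prss48 had 136, 48 and 59 from day 1 and 234, 446 and 458 from day 2 (2.30 ± 0.35, adjusted p = 0.0041, limma).

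Of the 50 called members, 42 lay inside introns, which is 13.5% of the members there, while 4.35% of the 1975 other genes tested inside introns and 0.925% of protein-coding genes were called higher. The intron classes compared are not at like levels. The mean value at 30 min had a median of 54.7 over intron members and 20 over all genes tested inside introns. The part of level in these shares was not tested. The 11 protein-coding members called included, named after their values were seen, Muc6, a gel-forming mucin of stomach and Brunner's glands, Wnt2b, a Wnt ligand, and Cdk5r1, an activator of the kinase CDK5, which all lay outside other genes. Muc6 had 62, 32 and 34 from PAM day 1 and 155, 238 and 154 from day 2 (log2 fold change 2.10, adjusted p = 0.0030, limma). Wnt2b had 38, 26 and 24 and then 66, 79 and 55 (1.17, adjusted p = 0.0076, limma).

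In the same contrast the hosts did not move on balance. The median log2 fold change was -0.04 over the 242 hosts and 0.81 over the 309 members in them, and 301 members were above their host. Across these 309 pairs Pearson's r between member and host was 0.39, a description over genes that share libraries and in part hosts. PAM against indirect CAP from day 1 gave -0.07 over hosts and -0.80 over members, with 2 members above their host.

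Values of 5 hosts with several members each, chosen after their values were seen, are given as a description of these hosts alone. The 6 members in Camk2d had differences of 0.87 to 1.39 in direct CAP for 30 min, and all 6 were above all controls in both day 2 media, as were 39.2% of all members and 16.7% of the genes tested. The 5 TEC members in Med13l, the gene of a Mediator subunit, had 1.01 to 1.34 and were also above all controls in both day 2 media. Gm43274, in Med13l, had 31, 31, 46 and 28 in untreated lines 1 to 4, 76, 78 and 108 in direct CAP for 30 min and 105, 185 and 164 in PAM from day 2.

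By contrast 0 of the 4 members in Cers6, a ceramide synthase gene, 0 of the 4 in Tcf12, a transcription factor gene, and 0 of the 6 in Kcnq1 were above all controls in PAM from day 2. With 20.2% of the genes tested above all controls there, a count of 0 among so few genes is read as no result. Gm37159, in Cers6, had 74, 61, 117 and 43 untreated, 144, 170 and 153 in direct CAP for 30 min and 130, 199 and 65 in PAM from day 2, where line 4 overlapped the controls. The difference of the host itself in PAM from day 2 was 0.50 for Camk2d, 0.34 for Med13l, -0.93 for Cers6, -0.31 for Tcf12 and -1.21 for Kcnq1. At 30 min of direct CAP these hosts had 0.23, 0.14, -0.12, -0.04 and 0.00.

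**Figure D5:**
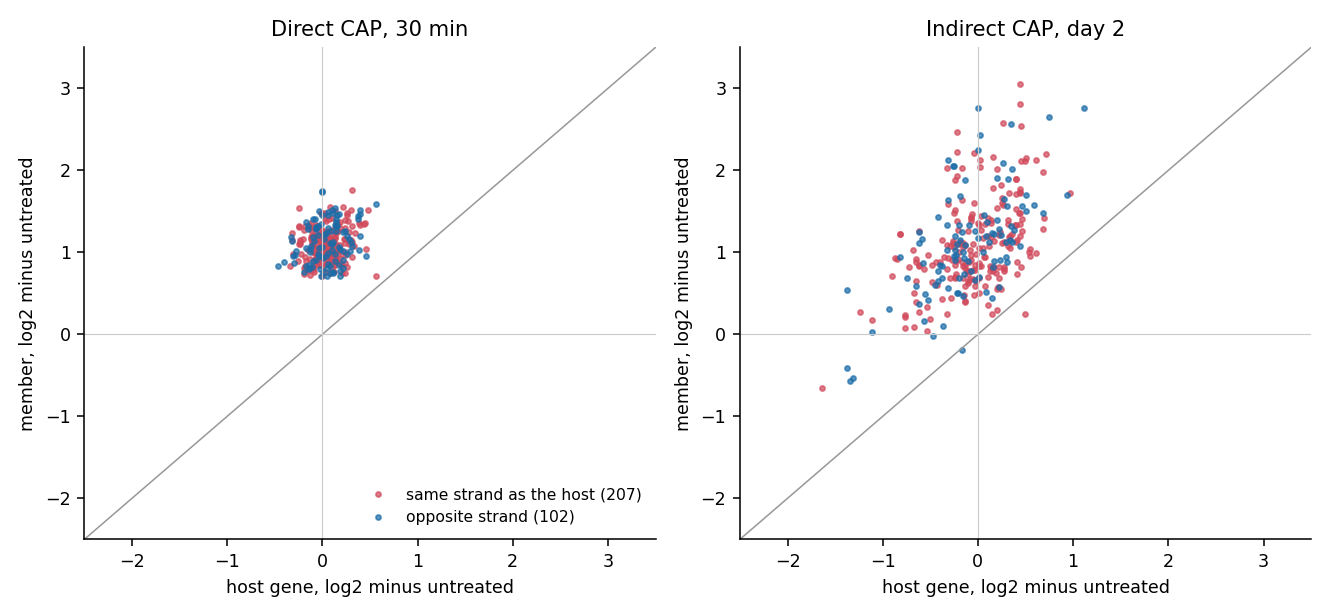
Difference from untreated (log2) of each intron member (y axis) against that of its host gene (x axis) in direct CAP for 30 min (left) and indirect CAP from day 2 (right), for members on the host's strand (red) and the opposite strand (blue), with the line of equal values in grey. On the left all 309 points lie above the line around a host median of 0.05 and a member median of 1.09.

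The other contrasts called no member in the fit without the block, with a background of 0% in each direction. PAM against indirect CAP from day 1 had a median of -0.78 over the members and -0.14 over all genes tested, and 379 of 380 members were on the lower side. At an unadjusted p under 0.05, 234 members stood out there (61.6%, against 19.7% of the genes tested). Indirect CAP from day 2 against day 1 had a median of 0.12, with 58 members at an unadjusted p under 0.05 (15.3%, against 16.7%). With the replicate block it called 3 members higher, Gm37465, Gm38381 and Gm37524, against 0.427% of the genes tested. PAM against indirect CAP from day 2 had a median of -0.13, which was 0.08 after quantile normalization, and 16 members at an unadjusted p under 0.05 (4.21%, against 13.7%). The difference between media in the day 2 against day 1 change had a median of 0.66 and lay above 0 in 368 members, and 56 had an unadjusted p under 0.05 (14.7%, against 4.55%), but none passed the adjusted threshold. The blocked fit called 0 members between PAM and indirect CAP on either day and 0 for the difference between media.

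For the fructose genes these contrasts did not pass the threshold. The log2 fold change of indirect CAP from day 2 against day 1 was -1.28 ± 0.78 (SE) for Slc2a5, with adjusted p = 0.45, and -1.80 ± 0.76 for Slc2a7, with adjusted p = 0.26 (limma). With the replicate block the adjusted p was 0.18 and 0.011. For Tkfc it was -0.43 ± 0.53.

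Fixed gene lists held few members. Members were 0.436% of the protein-coding genes tested and 4.05% of the lincRNAs tested. Counts of 0 or 1 member in lists this short, here and in the next paragraph, are read as no result. The list of nuclear and stress-linked long noncoding RNAs had 1 member, Kcnq1ot1, of 15 tested, with a list median at 30 min of 0.44. Neat1 and Malat1, both nuclear RNAs, stayed high at 24 h and were no members. Their differences were 1.43 and 1.34 at 30 min and 1.09 and 1.32 at 24 h. The list of genes that the study named for 30 min also had Kcnq1ot1 as its 1 member of 42, while 31 of the others were among the genes also higher at 24 h. That list was chosen by the study on these samples and is not independent evidence.

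The immediate early AP-1 genes (10 tested), other immediate early genes (29), RNA processing genes with detained introns (24), very long genes and genes of giant proteins (16), stress response genes (25), interferon-stimulated genes (18), fetal-like regeneration genes (14) and mitochondrially encoded messenger RNAs (11) had 0 members. Their medians at 30 min were 0.74, 0.53, 0.12, 0.44, 0.38, 0.11, 0.88 and -0.02. At 24 h the first of these had a median of 1.25 and the regeneration genes 2.45. Fos, the prototype immediate early gene, had a difference of 2.57 at 30 min and 2.08 at 24 h, so it did not meet the limit at 24 h.

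No marker of a cell type was a member. With members at 0.436% of the protein-coding genes tested, this is read as no result. The median difference at 30 min was 0.16 for the epithelial markers (9 tested), -0.26 for stem cells (6), -0.87 for Paneth cells (7), -0.01 for goblet cells (7), 0.13 for enterocytes (8), -0.57 for enteroendocrine cells (8) and 0.18 for tuft cells (3). The summed values of epithelial markers were 119409 to 129917 untreated and 128445 to 153328 at 30 min, so the labelled tissue was seen in its markers. The markers of stem cells, the cell type in the labels, summed to 34670 to 41713 untreated, 21915 to 34548 at 30 min and 5969 to 12023 at 24 h. In bulk samples fewer cells of a type and less RNA per cell cannot be told apart. Markers of mesenchyme (19 to 57 untreated, 29 to 38 at 30 min), immune cells (293 to 360 and 327 to 363), endothelium (65 to 126 and 69 to 115) and nerve and muscle (44 to 58 and 35 to 38) summed to far less. The immune sum was mostly Csf1r, with a mean of 261 untreated. Lum, Cdh5 and Myl1 were at 0 in all untreated libraries. Medians of these 4 lists at 30 min, over 3, 3, 3 and 2 genes tested, were 0.57, 0.05, -0.25 and -0.28. Mitochondrially encoded RNA made up 1.24% to 1.54% of untreated libraries, 1.14% to 1.47% at 30 min and 0.668% to 0.880% in PAM from day 2. The part of these shifts in the members' values was not tested.

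At the limits of the rule the members and their nearest neighbours outside it were alike. Gm42726 had a mean of 30.0 at 30 min and was inside, and Gm29488 had 29.7 and was outside. Gm26546 had a difference at 30 min of 0.7005 and Neil2, a DNA glycosylase gene, 0.6991. 5830432E09Rik had a difference at 24 h of 0.2991 and Col20a1, a collagen gene, 0.3007. Kctd4 had a gap of 1 between its groups and 2900005J15Rik a lowest treated value equal to its highest untreated value of 50.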

How the data were processed

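Total RNA of 22 organoid libraries was sequenced by the authors as paired-end reads. The study's methods name the Ovation Solo or the NEBNext kit for the libraries and do not say which samples had which. The deposited unit, CP20M in the authors' words, is treated here as a score. It is a read count that the authors scaled to about 20 M per library and rounded up (totals 20007540 to 20016513). The study's text defines CP20M with a division by transcript length, whereas the totals and the common step of low values show no such division in the deposited table. Per the labels and the study's methods, reads were trimmed with Trimmomatic 0.36, aligned to GRCm38 with STAR 2.5.3a and counted on Ensembl GRCm38.90 genes with HTSeq 0.9.1, with the strand setting not given in the sources used here. Scaled values are not counts, so tests for counts were not run. The authors' edgeR results were not used here. Scaling to a fixed total makes every value relative to the rest of its library. Depth was estimated from the spacing of low values (19.4 to 28.7 M reads), and values near 30 have a counting error of several reads.

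Genes were matched by identifier to GENCODE vM21 (379 of 380 members). Position was taken against exons and introns of protein-coding genes. Values were analysed as log2(value + 1). Contrasts among the 12 media libraries were fitted together with limma 3.58.1 (R 4.3.3, trended eBayes) over genes for which 3 or more of them had values of at least 10, with Benjamini-Hochberg adjustment over all genes tested. The fit found 197 of 200 changed genes with 0 false calls on simulated data (18475 genes, indirect CAP day 2 against day 1). The simulated libraries were independent and had no effect of organoid line, and no gene with a low mean was changed. This was a check of the code, and it does not give the power or the false calls of the fit on the real libraries. Figures were drawn with Python 3.11.15 and matplotlib 3.10.9.

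The members and gene lists were chosen with earlier results of these data known. The named genes were the 10 members with the largest difference and the 10 with the highest mean at 30 min, members on a list, the 5 called members with the largest change in each direction of each tested contrast, the genes next to each limit of the rule, and up to 3 members per gene type with 3 or more members. Other genes were named after their values were seen. The shares inside introns under 2 alternatives were added after seeing the data. Replicate numbers mark the same organoid line. After removal of group means, all 18 same-line pairs of media libraries correlated above 0.1 (median r = 0.61). The line therefore served as a replicate block in an alternative. Of 36 pairs of different lines 2 did (median r = -0.34). That is no separate comparison, since removal of means over 3 lines pushes these pairs to the opposite sign. In the fit without the block, which does not use this pairing, the p-values measure the spread between lines 1, 2 and 4. With the block they measure the spread that is left after line means are removed. Alternatives were another scaling, pseudocount, filter, threshold or set of libraries, and each library left out. No 2 libraries of a group were copies, with at most 3.30% identical values. Some items are not reported here.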

Additional observations from a re-analysis of the deposited data

Results flagged for a closer look

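Among the 39 sets of 4 untreated values checked, 3 had a library far from the others by Dixon's 95% limit, and chance flags about 1 in 20. The gap divided by the range was 0.838 for Gm38065 (19, 21, 56 and 25 in lines 1 to 4), 0.842 for Gm7985 (7, 9, 26 and 10) and 0.837 for Prss48 (34, 36, 77 and 28). The high library was line 3 in all 3 genes, and line 3 has no treated library.

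AI480526, a lincRNA outside protein-coding genes, was the 1 named member flagged for day differences of opposite sign in the 2 media. From day 1 to day 2 it was higher in all 3 lines with PAM, by 0.21, 0.41 and 0.26 on the log2 scale, and lower in all 3 lines with indirect CAP. The difference between the media was 0.63, with an adjusted p = 0.99 in limma's test of the interaction across all genes. With 3 lines per medium such signs can arise by chance among the genes checked, so nothing is read from the flag.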

How the results depend on the processing

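The number of genes that met the rule was 236 after quantile normalization, 738 with a mean of at least 10 and 72 with a mean of at least 100, and between 161 and 523 when each library was left out. Within organoid lines, as a replicate block, 439 genes met it, of which 293 were among the 380. The members above all untreated libraries numbered 209 to 338 in indirect CAP from day 1, 243 to 312 in indirect CAP from day 2, 10 to 49 in PAM from day 1 and 158 to 246 in PAM from day 2 when each library was left out, and 27 in PAM from day 1 after quantile normalization. The members called between PAM from day 2 and day 1 numbered 92 with the replicate block, 33 without a filter, 0 with only the PAM libraries, 141 at an adjusted p under 0.05 and 0 to 75 when each library was left out. The replicate block called 3 members between indirect CAP from day 2 and day 1, and it changed no other count from 0. The 5 named members kept their direction in all alternatives and missed the threshold in 27 of 90. A value under 30 rests on few reads, which limits differences of single low genes. All 22 libraries, a pseudocount of 10 and the other alternatives left the counts within 1.5 times. The cause of these shifts was not tested.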
